A study of Mus musculus with 8 samples.

Results

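Mitochondria carry a small circular genome of their own, and all 37 genes that the deposited table lists for it (gene names beginning with mt-, of 55367 genes listed) were examined in mouse kidney with and without c-Maf, a basic leucine zipper transcription factor. They comprise 13 protein-coding genes, 2 ribosomal RNA (rRNA) genes and 22 transfer RNA (tRNA) genes. Whole kidneys of 8 C57BL/6J mice aged 8 weeks were analyzed by RNA-Seq. The 4 *c-Maf* ΔTAM mice (labelled Maf conditional KO, named KO1 to KO4 below) carried c-Maf flanked by loxP sites and a CAG-Cre-ER TM transgene, a Cre recombinase that is driven by the ubiquitous CAG promoter and activated by tamoxifen (TAM). The 4 *c-Maf* fl/fl mice (labelled Maf flox/flox, named flox1 to flox4) carried the same floxed allele without the transgene and are called control mice below. Both genotypes received TAM. With the CAG promoter, deletion was not restricted to the kidney or to a cell type. The comparison asks whether loss of c-Maf changed the mitochondrial RNAs of the kidney.

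The mitochondrial genome is transcribed from both strands into long precursors, and excision of the tRNAs that lie between the other genes releases the mRNAs and rRNAs. The 13 proteins are core subunits of respiratory complexes I, III and IV and of ATP synthase, and every other subunit is encoded in the nucleus. Transcription, RNA processing and translation inside the organelle rest on nuclear genes as well. Kidney tubules, above all the proximal tubule and the thick limb, are rich in mitochondria because the active transport of filtered solutes consumes ATP.

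Library totals ranged from 16649129 to 22990257 counts. *Maf* had 178 to 671 counts in the *c-Maf* ΔTAM mice and 5988 to 7746 in the control mice (log2 fold change -4.05, edgeR adjusted *P* = 0.0115). The label protocol mentions liver, whereas the tissue label says whole kidney. Proximal tubule markers summed to 16533 to 25165 CPM (counts scaled to library size) and hepatocyte markers to 31.6 to 56.3 CPM over the 8 mice. *Xist*, the RNA that coats the inactive X chromosome, was at 2 counts in KO1, 6 in flox3 and 22 in flox4 and at 17618 to 22387 in the other 5 mice, and the labels give no sex. KO1 and flox4 also stood apart in the mitochondrial RNAs, so the mitochondrial share and the median over the mRNAs are given with and without them.

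Mitochondrial RNA made up a large fraction of every library. The 37 genes took 32.3, 22.1, 21.6 and 18.7% of all counts in KO1 to KO4 and 17.1, 18.7, 18.7 and 25.5% in flox1 to flox4. KO1 was the highest mouse and flox4 the next, flox1 was the lowest, and the genotypes overlapped. The mean was 23.7% ± 5.95 (SD, n = 4) in *c-Maf* ΔTAM and 20% ± 3.73 (SD, n = 4) in control kidneys, a difference of 3.71 percentage points that was smaller than the SD within the *c-Maf* ΔTAM mice. The difference was 0.834 points without KO1, 5.54 points without flox4, and 2.66 points without both. Counting error was small beside this spread, with 95% Wilson intervals of at most 0.019 percentage points to either side, which cover counting error only.

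**Figure D1:**
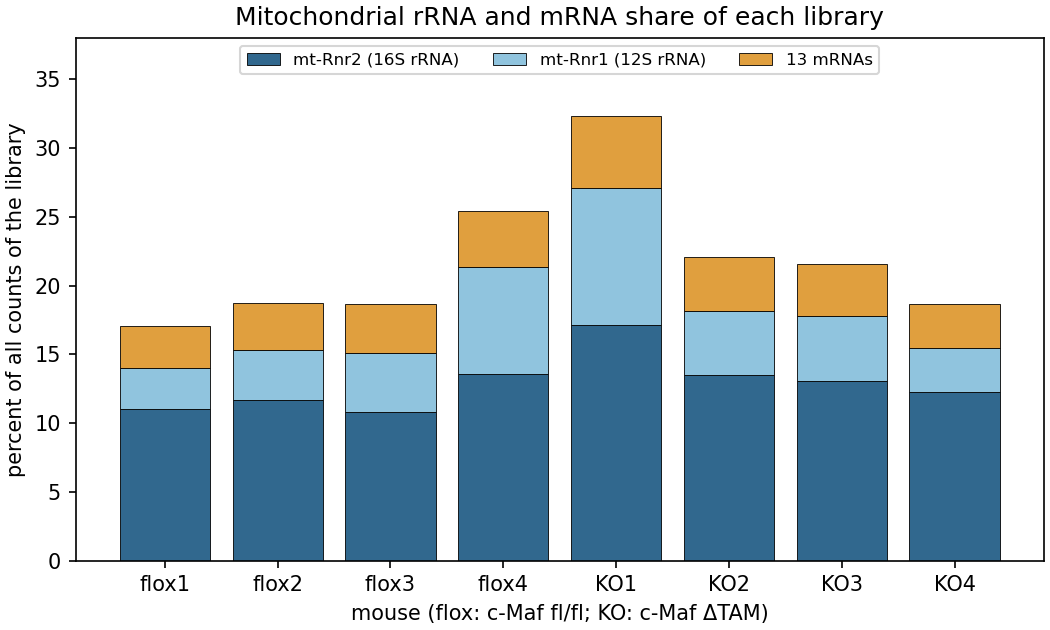
Percent of all counts of each library (y axis) taken by the 2 mitochondrial rRNAs and the summed 13 mRNAs (stacked bars) in each of the 8 mice (x axis). The bars of KO1 and flox4 are the tallest, and in every mouse the rRNAs make up most of the bar; the tRNAs, at most 0.0417% of counts, are not drawn.

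Most of these counts were rRNA. The rRNAs held 80.7 to 83.7% of the mitochondrial counts, the mRNAs 16.2 to 19.1% and the tRNAs 0.129 to 0.192%. The kit used for the libraries depletes rRNA, so these values describe what remained after depletion and not the amounts in the tissue. Of all counts, the mRNAs took 5.24, 3.88, 3.78 and 3.17% in KO1 to KO4 and 3.09, 3.43, 3.56 and 4.12% in flox1 to flox4. The order of the mice was close to that of the total, with KO1 highest, flox4 next and flox1 lowest, and the genotypes overlapped. Counts of the cytoplasmic rRNA genes found in the table took 2.09, 1.14, 1.63 and 1.36% in KO1 to KO4 and 0.724, 0.219, 2.08 and 3.11% in flox1 to flox4. They were highest in flox4, followed by KO1 and flox3, although the mitochondrial share of flox3 was 18.7%, the same as in flox2 and KO4. The part of rRNA depletion in the mitochondrial shares was not tested.

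No mitochondrial gene was called between the genotypes. The comparison used the quasi-likelihood test of edgeR on TMM-normalized counts with Benjamini-Hochberg adjustment over 20149 genes, of which 436, or 2.16%, had an adjusted *P* under 0.05 and were called. Of the 37 mitochondrial genes, 34 had enough counts to be tested (13 mRNAs, 2 rRNAs and 19 tRNAs), and *mt-Td*, *mt-Tk* and *mt-Tg* did not. Called genes numbered 0 of 34, and adjusted *P* values ranged from 0.200 to 0.998. At an unadjusted *P* under 0.05 there was 1 mitochondrial gene (*mt-Tl2*), compared with 14% of all genes tested. DESeq2, edgeR's exact test and limma after quantile normalization also called 0. The genotypes overlapped for all 34 genes, whereas 9.79% of all genes tested did not overlap.

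The estimates lay mostly above 0 without passing the test. Log2 fold changes (*c-Maf* ΔTAM over control) were above 0 for 28 genes and below 0 for 6, with a median of 0.13 over the mRNAs, 0.25 over the rRNAs and 0.21 over the tested tRNAs, beside 0.0027 over all genes tested. Genes of the mitochondrial genome share their precursors and are not independent, so these counts do not stand for replicates. The median over the mRNAs was -0.19 without KO1, -0.0014 without flox1 and 0.37 without flox4, and its sign therefore rested on which mice were included. It was 0.06 without both KO1 and flox4. The 95% confidence intervals still held a 2-fold rise for 7 of the 34 genes and a 2-fold fall for 3.

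Of the marker lists for tubule cells, only that of the proximal tubule held called genes. The proximal tubule markers together reached 16533 to 18664 CPM with c-Maf deleted and 20584 to 25165 CPM in control mice, and 3 of 13 fell (*Slc34a1*, *Slc5a12* and *Gatm*, named after their values were seen), beside 2.16% called over all genes. The rest of this list was not called, with log2 fold changes from -1.07 (*Slc22a8*) to 0.11 (*Aqp1*). *Lrp2* and *Cubn* were at -0.17 and -0.03. In bulk tissue, fewer cells of a type and less RNA per cell cannot be told apart. Thick limb markers were lowest in KO1 (4139 CPM) and flox4 (5822 CPM), the mice with the highest mitochondrial shares, against 6241 to 7109 CPM in the other 6, and 0 of 6 were called. The same mice had the lowest sums of the distal convoluted tubule markers (1286 and 1332 CPM, against 1455 to 2104 CPM) and the podocyte markers (370.9 and 397.6 CPM, although flox3 was close to flox4 at 397.7 CPM). Collecting duct markers were lowest in flox4, flox3 and KO1 (475.7 to 488.1 CPM). Of these 3 lists, 0 of 5, 0 of 5 and 0 of 8 markers were called. The part of these markers in the mitochondrial levels was not tested.

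**Figure D2:**
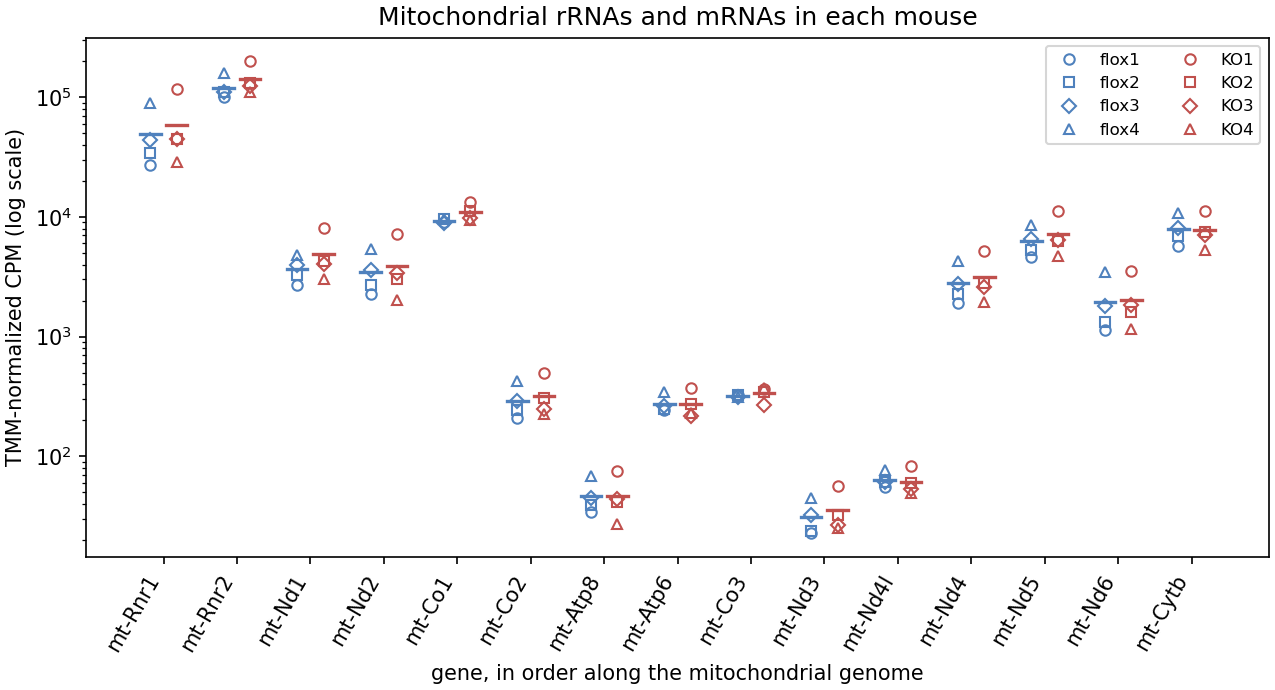
TMM-normalized CPM on a log scale (y axis) of the 2 rRNAs and 13 mRNAs in genome order (x axis), with a symbol for each mouse and a line at each genotype mean. The genotypes overlap for every gene, and KO1 is the highest mouse for 14 of the 15.

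The 2 rRNAs were the most abundant mitochondrial transcripts. *mt-Rnr1*, the RNA of the small ribosomal subunit (MT:70-1024, plus strand, Ensembl annotation of GRCm38), was at 116478, 45207, 44904 and 28758 CPM in KO1 to KO4 and at 27419, 33990, 44227 and 90163 CPM in flox1 to flox4. KO1 and flox4 lay far above the other 6 mice, so that mice of both genotypes were mixed. The log2 fold change was 0.27 (SE 0.543, edgeR adjusted *P* = 0.879), with a 95% interval from -1.01 to 1.54. *mt-Rnr2*, the RNA of the large subunit (MT:1094-2675, plus strand), was at 200001, 131468, 124887 and 111058 CPM in KO1 to KO4 and at 100687, 109992, 111534 and 158531 CPM in flox1 to flox4. The same mice were high, over a narrower range. The log2 fold change was 0.24 (SE 0.204, edgeR adjusted *P* = 0.665), and it ran from 0.03 to 0.40 with 1 mouse left out.

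The 2 rRNAs lie next to each other with only *mt-Tv* between them, yet their ratio varied between mice. The ratio of *mt-Rnr2* to *mt-Rnr1* counts was 1.72, 2.91, 2.78 and 3.86 in KO1 to KO4 and 3.67, 3.24, 2.52 and 1.76 in flox1 to flox4. It was lowest in KO1 and flox4, and its means of 2.82 ± 0.878 and 2.8 ± 0.839 (SD, n = 4 each) were nearly equal between genotypes. The highest mouse exceeded the lowest 4.25-fold for *mt-Rnr1* and 1.99-fold for *mt-Rnr2*. Among the 3568 genes with a mean of at least 50 CPM, the median of this ratio was 1.38, and 2.55% exceeded the value of *mt-Rnr1*.

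Complex I, the NADH dehydrogenase that passes electrons to ubiquinone, takes 7 of the 13 mRNAs. *mt-Nd1* had the largest estimate of all mRNAs, at 8091, 4257, 4027 and 3041 CPM in KO1 to KO4 and 2699, 3247, 3997 and 4772 CPM in flox1 to flox4. KO1 was highest and flox1 lowest, and KO4 lay below 3 of the control mice. The log2 fold change was 0.40 (SE 0.309, edgeR adjusted *P* = 0.630). With 1 mouse left out it ran from 0.04 (without KO1) to 0.57 (without KO4), and it was 0.19 without both KO1 and flox4. The estimates of *mt-Nd2*, *mt-Nd3*, *mt-Nd4* and *mt-Nd5* were 0.16, 0.20, 0.15 and 0.19 on the log2 scale, with adjusted *P* values of 0.820 to 0.918, and that of *mt-Nd4l* was -0.05. *mt-Nd6*, the only mRNA on the minus strand, was at 3540, 1598, 1820 and 1161 CPM in KO1 to KO4 and 1137, 1314, 1791 and 3494 CPM in flox1 to flox4. KO1 and flox4 were nearly equal and stood above the other 6 mice, and the interval was wide (log2 fold change 0.07, 95% interval -1.06 to 1.20). Since strand was ignored when the reads were counted, *mt-Nd6* and RNA antisense to it cannot be told apart.

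*mt-Cytb* encodes cytochrome b, the catalytic core of complex III and its only subunit from the mitochondrial genome. It was at 11318, 7486, 7077 and 5263 CPM in KO1 to KO4 and 5736, 6924, 8132 and 10701 CPM in flox1 to flox4. The highest and the lowest mouse were both *c-Maf* ΔTAM mice, and the log2 fold change was -0.016 (SE 0.248, edgeR adjusted *P* = 0.986).

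Complex IV, cytochrome c oxidase, has its 3 core subunits from *mt-Co1*, *mt-Co2* and *mt-Co3*. *mt-Co1*, the most abundant mRNA by CPM, was at 13417, 11131, 9843 and 9475 CPM in KO1 to KO4 and 9073, 9658, 8987 and 9606 CPM in flox1 to flox4. Only KO4 fell within the range of the control mice, whose SD was 350 CPM around a mean of 9331. The log2 fold change was 0.23 (SE 0.124, edgeR adjusted *P* = 0.444), and it ran from 0.12 to 0.30 with 1 mouse left out. *mt-Co3* varied least of all, from 266.1 to 369.2 CPM over the 8 mice, and *mt-Co2* ranged from 208 to 497.3 CPM. Their log2 fold changes were 0.08 (SE 0.107) and 0.13 (SE 0.313). Of the ATP synthase genes, the mean of *mt-Atp6* was 272.9 ± 70.1 CPM for the *c-Maf* ΔTAM and 273.4 ± 45.9 CPM for the control mice (SD, n = 4 each). *mt-Atp8* was at 46.7 ± 19.9 and 46.6 ± 15.4 CPM (SD, n = 4 each). These means were the closest of all mRNAs, with log2 fold changes of -0.0024 and 0.0033.

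The mRNAs did not vary together over the mice to the same degree. *mt-Nd2* spanned 3.53-fold from the lowest mouse to the highest, *mt-Nd6* 3.11-fold and *mt-Nd1* 3-fold, against 1.49-fold for *mt-Co1* and 1.39-fold for *mt-Co3*. Among the control mice alone, *mt-Nd6* spanned 3.07-fold and *mt-Nd2* 2.41-fold, whereas *mt-Co1* spanned 1.07-fold and *mt-Co3* 1.04-fold. KO1 and flox4 were the 2 highest mice for 13 of the 15 rRNA and mRNA genes, flox1 was the lowest for 8 and KO4 for 4.

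**Figure D3:**
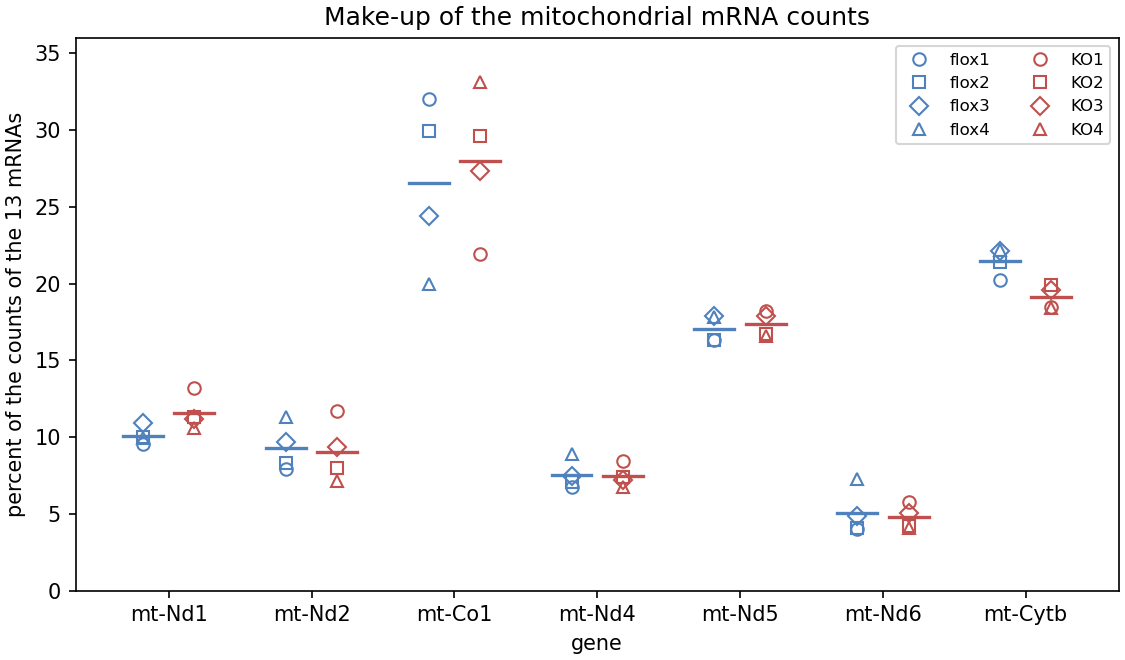
Percent of the summed counts of the 13 mRNAs (y axis) for the 7 mRNAs with a mean above 5% in the control mice (x axis), with a symbol for each mouse and a line at each genotype mean. *mt-Cytb* takes 18.4 to 19.9% in the *c-Maf* ΔTAM mice and 20.2 to 22.2% in the control mice, and for the other 6 genes the genotypes overlap.

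When each mRNA was taken as a percent of the 13 mRNAs in the same mouse, 1 gene separated the genotypes. *mt-Cytb* took 18.5, 19.9, 19.6 and 18.4% in KO1 to KO4 and 20.2, 21.4, 22.1 and 22.2% in flox1 to flox4. All *c-Maf* ΔTAM mice lay below all control mice, with means of 19.1% ± 0.771 and 21.5% ± 0.906 (SD, n = 4 each). Without overlap stood 1 of the 13 mRNAs, and 3.02% of all genes tested did not overlap when scaled in this way. *mt-Nd1* took 13.2, 11.3, 11.2 and 10.6% in KO1 to KO4 and 9.53, 10, 10.9 and 9.92% in flox1 to flox4, where flox3 lay above KO4. *mt-Co1* took the smallest part in flox4 (20%) and KO1 (21.9%) and the largest in KO4 (33.1%) and flox1 (32%).

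The edgeR test with the summed mRNA counts as library size called 0 of the 34 mitochondrial genes, and 0 had an unadjusted *P* under 0.05. In that fit 165 of 20149 genes, or 0.819%, were called (23 higher and 142 lower, against 118 higher and 318 lower on the TMM scale), and the median over all genes moved to -0.12 on the log2 scale. *mt-Cytb* was at -0.17 (SE 0.251) and *mt-Nd1* at 0.20 (SE 0.256). *mt-Nd5* (SE 0.253) and *mt-Co1* (SE 0.254) had nearly the same errors. Their percents of the mRNA counts spread unequally, with SDs of 0.8 and 4.72 in the *c-Maf* ΔTAM mice. The errors of this fit thus do not follow the spread of the percents, and it cannot decide whether *mt-Cytb* differs.

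Ratios within a mouse do not depend on library scaling. The *mt-Nd1* to *mt-Cytb* ratio of counts was 0.715, 0.569, 0.569 and 0.578 in KO1 to KO4 and 0.471, 0.469, 0.492 and 0.446 in flox1 to flox4. The genotypes did not overlap. Of the 78 ratios between 2 mRNAs, 6 did not overlap, namely *mt-Nd1* over *mt-Atp8*, *mt-Nd4*, *mt-Nd5* and *mt-Cytb*, *mt-Atp8* over *mt-Nd5*, and *mt-Nd5* over *mt-Cytb*. Of these 6, 4 share *mt-Nd1*. Among the ratios between any pair of the 3568 genes with a mean of at least 50 CPM, 18.3% did not overlap, a larger share than among the mRNAs. The ratios between mRNAs were singled out after their values were seen, and no *P* value is given for them. *mt-Nd1* shares no 36-base sequence with another annotated transcript and *mt-Cytb* 3.07% of its own.

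The tRNAs were scarce in these libraries and differed by strand. Of the 22 tRNA genes, 8 lie on the minus strand and 14 on the plus strand. The minus-strand tRNAs were at 13.3 to 146 CPM (mean over the 8 mice, median of the genes 19.1 CPM) and the plus-strand tRNAs at 0.0496 to 21.4 CPM (median 2.59 CPM). The 9 highest tRNAs comprised all 8 of the minus strand and *mt-Tl1*, for leucine, of the plus strand. Per kilobase of gene, the medians were 287.1 and 41.4 CPM. Strand was ignored when the reads were counted, so a tRNA and an RNA antisense to it cannot be told apart.

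The sequences of the tRNAs that the results turn on follow here, 5′ to 3′ on the strand of the gene, as in the GENCODE M21 transcripts of GRCm38, with the anticodon in capitals. The first 3 are the most abundant ones and the last 2 join *mt-Ta* among the genes called with the *Xist* covariate.

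*mt-Te*: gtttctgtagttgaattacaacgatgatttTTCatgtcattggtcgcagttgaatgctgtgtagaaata
*mt-Ts1*: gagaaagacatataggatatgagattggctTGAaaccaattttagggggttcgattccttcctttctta
*mt-Ta*: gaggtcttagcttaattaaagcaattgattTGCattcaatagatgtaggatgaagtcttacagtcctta
*mt-Tl2*: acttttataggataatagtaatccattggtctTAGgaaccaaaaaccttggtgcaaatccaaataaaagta
*mt-Tp*: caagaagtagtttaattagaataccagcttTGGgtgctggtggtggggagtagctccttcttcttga

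*mt-Te*, the tRNA for glutamate (MT:14071-14139, minus strand), directly adjoins *mt-Nd6* on the same strand and was at 243, 120.2, 134.9 and 105.7 CPM in KO1 to KO4 and 93.7, 110.8, 157.7 and 202 CPM in flox1 to flox4. Its order of mice was near that of *mt-Nd6*, with KO1 and flox4 highest and flox1 lowest. The log2 fold change was 0.10 (SE 0.340, edgeR adjusted *P* = 0.935). *mt-Ts1*, a tRNA for serine (MT:6870-6938, minus strand), overlaps the end of *mt-Co1* by 3 bases and had the lowest estimate of all tested mitochondrial genes, at -0.21 (SE 0.151, edgeR adjusted *P* = 0.580). That estimate ran from -0.32 to -0.06 with 1 mouse left out and was -0.0045 among the mice with high *Xist*. *mt-Ta*, for alanine (MT:5018-5086, minus strand), was at 35.2, 23.9, 20.1 and 20.5 CPM in KO1 to KO4 and 15, 16.4, 27.9 and 20.7 CPM in flox1 to flox4. KO1 was highest and flox1 lowest, and the genotypes overlapped through flox3 and flox4 (log2 fold change 0.32, SE 0.235, edgeR adjusted *P* = 0.603).

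*mt-Tl2*, a tRNA for leucine (MT:11671-11741, plus strand), came nearest to a call. It was outside the rule for named genes and was picked after its values were seen. Its levels were 6.41, 4.83, 4.44 and 6.5 CPM in KO1 to KO4 and 3.43, 3.02, 4.67 and 3.69 CPM in flox1 to flox4. Only flox3 reached into the range of the *c-Maf* ΔTAM mice. The log2 fold change was 0.58 (SE 0.200, edgeR adjusted *P* = 0.200, unadjusted *P* = 0.0132). Over the 19 tested tRNAs, 16 estimates were above 0 and 3 below, KO1 was the highest mouse for 11 and flox1 the lowest for 12.

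The mouse with the highest mitochondrial levels in each genotype, KO1 and flox4, had low *Xist*, and so did flox3. With the log2 *Xist* level of each mouse as a covariate, edgeR called 4 of the 34 mitochondrial genes, all higher in *c-Maf* ΔTAM kidneys, while 1471 of 20149 genes (7.3%) were called in that fit. The 4 were *mt-Nd1* at 0.52 (SE 0.136, edgeR adjusted *P* = 0.0403), *mt-Ta* at 0.47 (SE 0.107, edgeR adjusted *P* = 0.0118), *mt-Tl2* at 0.66 (SE 0.187, edgeR adjusted *P* = 0.042) and *mt-Tp*, for proline, at 0.54 (SE 0.131, edgeR adjusted *P* = 0.0186). 13 of the 34 had an unadjusted *P* under 0.05, compared with 20.9% of all genes tested. The estimate was above 0 for 33 of the 34 genes, and the median over the mRNAs was 0.28, beside 0.0031 over all genes.

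Among the 5 mice with high *Xist* alone, no mitochondrial gene was called. In KO2 to KO4 against flox1 and flox2, 789 of 21027 genes (3.75%) were called and 0 of 34 mitochondrial genes, with a lowest adjusted *P* of 0.0727 for *mt-Ta* and 9 at an unadjusted *P* under 0.05 (15.1% of all genes). *mt-Ta* was at 20.1 to 23.9 CPM in the 3 *c-Maf* ΔTAM mice and 15 and 16.4 CPM in the control mice, without overlap (log2 fold change 0.46, SE 0.130). *mt-Tl2* did not overlap either (0.70, SE 0.245, edgeR adjusted *P* = 0.16). *mt-Nd1* did overlap, since KO4 at 3041 CPM lay below flox2 at 3247 CPM (0.34, SE 0.141, edgeR adjusted *P* = 0.271). *mt-Tp* overlapped as well, with KO4 at 13 and flox2 at 13.5 CPM (0.41, SE 0.169, edgeR adjusted *P* = 0.261). Without overlap in these 5 mice stood 8 of the 34 genes, beside 32.2% of all genes tested. The low-*Xist* mice comprised a single *c-Maf* ΔTAM mouse (KO1) and could not be compared on their own.

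**Figure D4:**
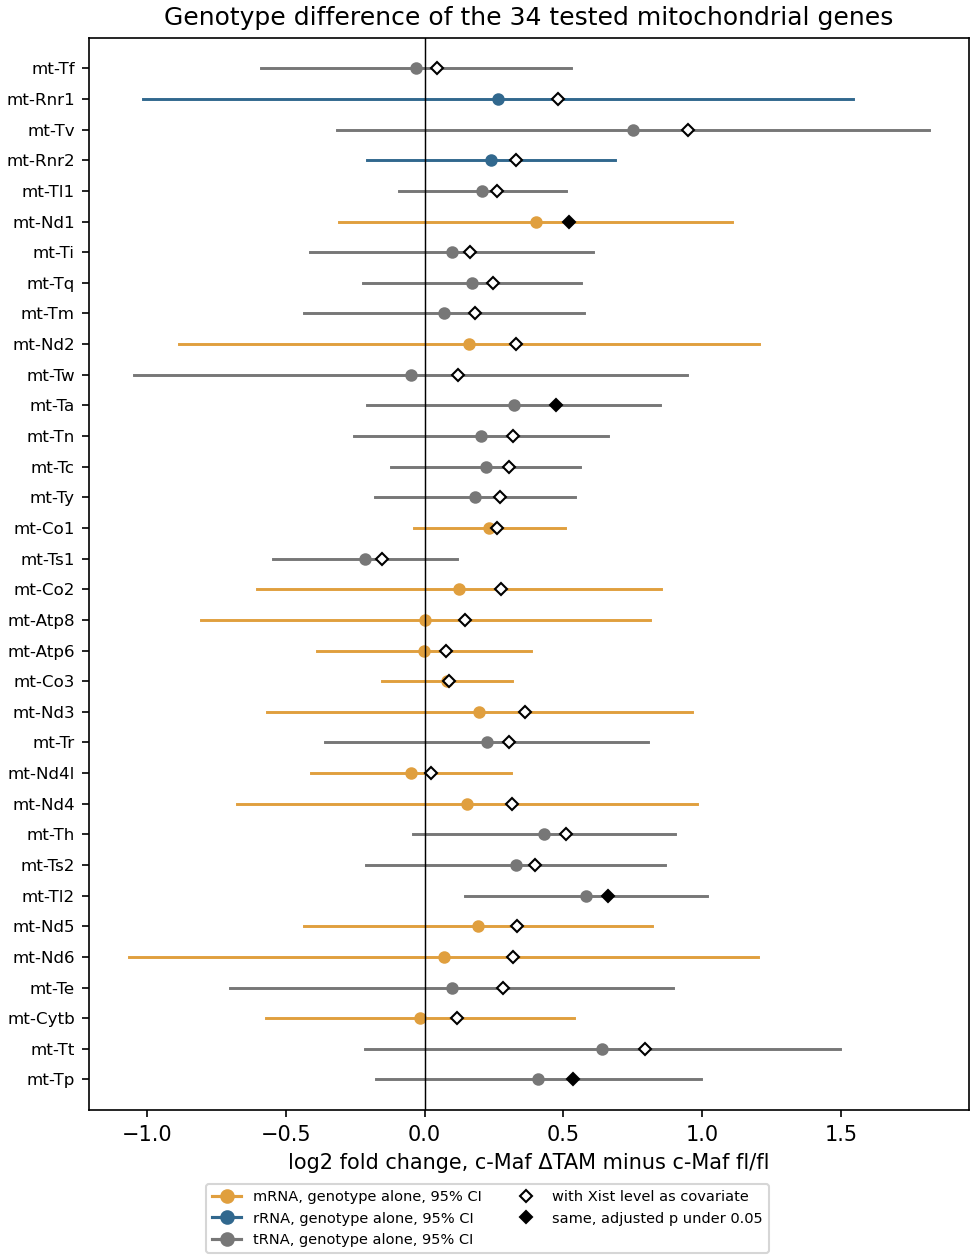
Log2 fold change of *c-Maf* ΔTAM over control (x axis) for the 34 tested genes in genome order (y axis). Circles and lines give the estimate and 95% confidence interval of the comparison by genotype alone, and diamonds the estimate with the *Xist* level as covariate, filled where the adjusted P was under 0.05; only the interval of *mt-Tl2* leaves out 0, and 4 diamonds are filled.

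Levels can be compared between genes only per length, and here shared sequence limited the comparison. In control kidneys, *mt-Rnr2* was at 75971 and *mt-Rnr1* at 51256 CPM per kilobase. Among the mRNAs, *mt-Cytb* (6882), *mt-Co1* (6039), *mt-Nd1* (3844), *mt-Nd6* (3726), *mt-Nd5* (3434), *mt-Nd2* (3361) and *mt-Nd4* (2039 CPM per kilobase) formed an upper group, in which the places of *mt-Co1* and *mt-Nd4* depend on how shared sequence was counted. *mt-Co2* (425.8), *mt-Co3* (405.2), *mt-Atp6* (401.4), *mt-Atp8* (228.6), *mt-Nd4l* (213.6) and *mt-Nd3* (88.2 CPM per kilobase) lay below it. Neighbours such as *mt-Nd1*, *mt-Nd6*, *mt-Nd5* and *mt-Nd2* differed by less than the spread between mice.

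The lower group lies in a stretch of the mitochondrial genome that also exists in the nucleus. Pieces of mitochondrial DNA have been copied into nuclear chromosomes in many species, and where a read fits both places equally well, the aligner, which is not given, decides whether it was left out or placed at either. Sequences of 36 bases, the read length, were compared with all other annotated transcripts. They were shared for 100% of *mt-Co2*, 99.9% of *mt-Co3*, 99.5% of *mt-Atp6*, 98.9% of *mt-Nd4l* and 98.1% of *mt-Nd3*, for 62.6% of *mt-Nd4* and 59.7% of *mt-Co1*, for 14% of *mt-Nd5* and 11.1% of *mt-Nd2*, and for at most 4.73% of the others. *mt-Atp8* lies between *mt-Co2* and *mt-Atp6* and no transcript is annotated opposite most of it, so its 4.73% may be too low.

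**Figure D5:**
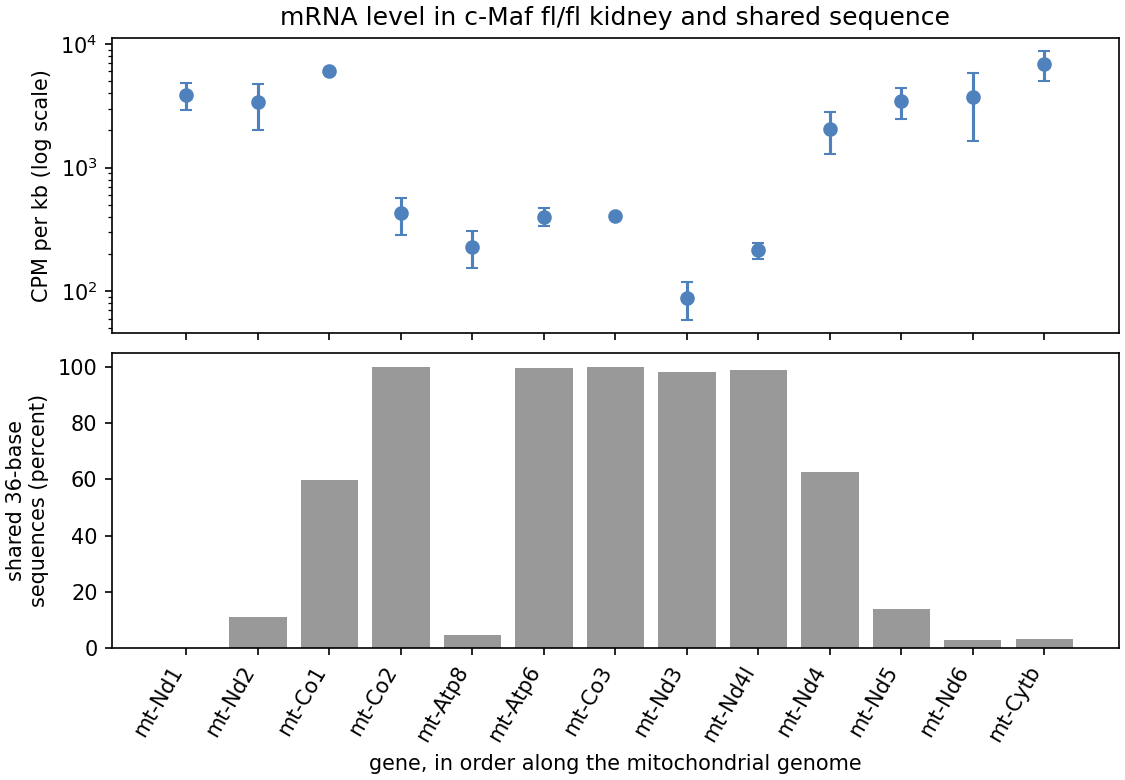
Upper panel, mean CPM per kilobase of the 13 mRNAs in the 4 control mice on a log scale, with SD as error bars. Lower panel, percent of the 36-base sequences of each gene found in another annotated transcript; the 5 genes with 98.1% or more shared sequence are all at 425.8 CPM per kilobase or below.

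For 6 of the 7 mRNAs with the most shared sequence, the copy that shares most lies on chromosome 1. These copies lie side by side, on the minus strand, between positions 24611535 and 24615565. They are *Gm28661* (like *mt-Co2*), *Gm10925* (*mt-Atp6*), *Gm28437* (*mt-Co3*), *Gm28438* (*mt-Nd3*), *Gm10222* (*mt-Nd4l*) and *Gm28439* (*mt-Nd4*). *mt-Co1* shares 39.2% of its sequences with *Gm13340* on chromosome 2 and 29.4% with *Gm29216*, which lies in the same row on chromosome 1. *mt-Co2* has a further copy on chromosome 2, *Gm13341*, which shares 43.1% of its sequences. The first read length of *mt-Co2*, which is found unchanged in *Gm28661*, shows how a read can belong to either gene.

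*mt-Co2*, MT:7013-7048: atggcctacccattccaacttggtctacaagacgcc

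For the 5 genes with the most shared sequence, the chromosome 1 copy had more counts than the mitochondrial gene in every mouse, except for *mt-Nd3* in KO4. The ratio of copy to mitochondrial counts was 1.35 to 1.91 for *mt-Co2*, 1.57 to 2.16 for *mt-Atp6*, 1.13 to 1.79 for *mt-Co3*, 0.98 to 1.53 for *mt-Nd3* and 1.74 to 2.39 for *mt-Nd4l*. It was 0.0763 to 0.105 for *mt-Nd4* and, for *mt-Co1*, 0.03 to 0.0364 with *Gm13340* and 0.0293 to 0.0429 with *Gm29216*. *Gm13341* reached 0.634 to 1.15 of the *mt-Co2* counts. The ratios overlapped between genotypes for all 9 pairs, and none of the 9 copies was called. With the counts of each chromosome 1 copy added to its mitochondrial gene, 0 of 34 genes were called and the median log2 fold change of the mRNAs was 0.08. With all annotated copies that share at least 100 sequences added, 0 of 34 were called and the median was 0.13. The levels of *mt-Co2*, *mt-Co3*, *mt-Atp6*, *mt-Nd3* and *mt-Nd4l* are uncertain, since the split of reads between gene and copy is not known. Those of *mt-Co1* and *mt-Nd4* are uncertain as well. If none of their shared reads had been counted, *mt-Co1* would be at 15347 ± 575.7, *mt-Cytb* at 7324 ± 1976, *mt-Nd4* at 5597 ± 2073 and *mt-Nd1* at 3990 ± 978.9 CPM per 1000 unshared sequences in control mice (SD, n = 4 each), so that *mt-Co1* would precede *mt-Cytb* and *mt-Nd4* would precede *mt-Nd1*. Whether shared reads were counted for these genes is not known, and *mt-Co2*, which has no unshared sequence, did receive counts.

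Genes can also overlap within the mitochondrial genome, and the counting left out reads that fell in more than 1 gene. *mt-Atp8* and *mt-Atp6* share 43 bases, or 21.1% of *mt-Atp8* and less of *mt-Atp6*. The shared stretch begins with the start codon of *mt-Atp6* and ends with the stop codon of *mt-Atp8*, both in capitals.

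*mt-Atp8/mt-Atp6*, MT:7927-7969, plus strand: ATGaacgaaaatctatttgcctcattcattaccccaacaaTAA

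Few of the nuclear genes that serve the mitochondrial genome were called. Of 68 tested genes for upkeep, transcription, RNA processing and translation of the mitochondrial genome and for mitochondrial biogenesis, 1 rose and 0 fell, beside 2.16% called over all genes, and the median log2 fold change was -0.02. The 1 gene was *Gabpb1*, which encodes the beta subunit of nuclear respiratory factor 2 (GABP), an activator of nuclear genes for respiration. It was at 16.7, 19.5, 17.2 and 18.1 CPM in KO1 to KO4 and 11.1, 12.8, 12.2 and 13.9 CPM in flox1 to flox4, without overlap (log2 fold change 0.52, SE 0.109, edgeR adjusted *P* = 0.0314). This call was lost when any of KO2, KO3, KO4, flox1, flox2 or flox3 was left out (log2 fold changes of 0.46 to 0.53, edgeR adjusted *P* = 0.0779 to 0.129) and with the replicate block (edgeR adjusted *P* = 0.141). KO1, the highest mouse for most mitochondrial genes, was the lowest of the *c-Maf* ΔTAM mice for *Gabpb1*. The summed biogenesis regulators, *Gabpb1* included, ran the other way. They reached 313.4 to 368.5 CPM in the *c-Maf* ΔTAM and 370 to 397.6 CPM in the control mice, without overlap, beside 9.79% of single genes tested.

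Other central genes of the list were not called. *Polrmt*, the mitochondrial RNA polymerase, was at -0.10 (SE 0.0935, edgeR adjusted *P* = 0.706) on the log2 scale. *Tfam*, which packages mitochondrial DNA and starts transcription, was at -0.01 (SE 0.0977, edgeR adjusted *P* = 0.973). *Lrpprc*, which stabilizes mitochondrial mRNAs, was at -0.03 (SE 0.0818, edgeR adjusted *P* = 0.899), and *Ppargc1a*, a coactivator of mitochondrial biogenesis, at -0.09 (SE 0.0845, edgeR adjusted *P* = 0.694). Of 71 nuclear subunits of complexes I, III and IV and ATP synthase, 0 rose and 1 fell, beside 2.16% called over all genes, with a median log2 fold change of -0.14. The 1 gene was *Ndufc2*, which encodes an accessory subunit of complex I and is named here after its values were seen. It was at 36.5, 50.1, 48.6 and 46.9 CPM in KO1 to KO4 and 58.4, 61.1, 70.6 and 74.1 CPM in flox1 to flox4, without overlap (log2 fold change -0.54, SE 0.115, edgeR adjusted *P* = 0.0339). This call was lost without any 1 of KO2, KO3, KO4, flox2, flox3 or flox4 (log2 fold changes of -0.59 to -0.47, edgeR adjusted *P* = 0.0615 to 0.112), without both KO1 and flox4 (edgeR adjusted *P* = 0.0705) and with the replicate block (edgeR adjusted *P* = 0.0892). The summed level of the 71 genes was 8369 to 9889 CPM in the KO and 9513 to 10553 CPM in control mice. It was lowest in KO1, the mouse with the highest level of the mitochondrial mRNAs.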

How the data were processed

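RNA-Seq of whole kidneys from 4 *c-Maf* ΔTAM and 4 *c-Maf* fl/fl mice was analyzed. The deposited values are raw counts by gene name that the authors obtained with featureCounts 2.0.1 (file header) from exons of Ensembl release 102 for GRCm38. The header's command counted each read of a pair singly, ignored strand, and left out reads that mapped to several places or to several genes. The aligner is not given in the sources used here. The labels also list Subread 2.0.2 and edgeR 3.36.0. The paper describes another route (CLC Genomics Workbench, a quantile method, an edgeR test), which starts from reads and was not repeated.

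Genes were kept by filterByExpr (20149 of 55367), scaled by TMM (factors 0.857 to 1.11) and compared with the robust quasi-likelihood test of edgeR 4.0.16 in R 4.3.3, without covariates, with Benjamini-Hochberg adjustment over all genes tested. Genes with an adjusted *P* under 0.05 were called. Standard errors divide the size of the log2 fold change by the square root of F, and intervals are 95%. CPM are TMM-normalized. Totals of 16649129 to 22990257 counts keep counting error small beside the spread between mice. Each mouse was 1 replicate, and all pairs of mice of a genotype differed by more than sampling noise. On simulated data with 200 changed genes among 19694 tested, 87% of 2-fold and 100% of 4-fold changes were recovered.

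All 13 mRNAs, both rRNAs, the 3 tRNAs with the highest mean CPM and any called tRNA were named, as were *Polrmt*, *Tfam*, *Lrpprc*, *Ppargc1a* and any called nuclear gene for upkeep, transcription, RNA processing, translation or biogenesis. Nuclear respiratory subunits were counted, and the 1 called was named after its values were seen. The genes and lists were chosen with earlier results of these data known. No *P* value is given for sums over the genes. Alternatives were other scalings, filters and tests (DESeq2 1.42.0, limma 3.58.1), a replicate block, an *Xist* covariate (log2 of CPM plus 1), the mice with at least 1000 *Xist* counts, and leaving out mice. Shared 36-base sequences were found in the GENCODE M21 transcripts (GRCm38, 141767 transcripts), in which all 37 genes had a transcript of the same length. Amino acid sequences were not used here. Figures were drawn with matplotlib 3.10.9.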

Additional observations from a re-analysis of the deposited data

Results flagged for a closer look

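In a check of 70 sets of 4 mice for a value far from the other 3 by Dixon's ratio at its 95% limit, 1 value stood out. *mt-Atp8* took 0.143% of the mRNA counts in flox4, against 0.120 to 0.122% in the other control mice (Dixon's ratio 0.901). Chance alone is expected to mark about 1 in 20 sets, or 3.5 here.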

How the results depend on the processing

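The count of called mitochondrial genes was 0 under 24 of 25 alternatives and 4 with the *Xist* covariate (*mt-Nd1*, *mt-Ta*, *mt-Tl2* and *mt-Tp*). With 1 mouse left out it stayed at 0, the median log2 fold change of the mRNAs ran from -0.1867 to 0.3689, and the difference in the mitochondrial share from 0.834 to 5.54 percentage points. The replicate numbers do not pair the mice, since the deviations of same-numbered mice correlated at -0.373, 0.152, -0.11 and -0.331. A replicate block called 0 mitochondrial genes and 129 of all genes, against 436 without it, with a median of 0.0979 for the mRNAs and, by construction, the same share difference. Over all genes, 243 were called with library totals only, 165 when scaled to mitochondrial mRNA, 886 by DESeq2, 1471 with the *Xist* covariate, 789 among mice with high *Xist*, and 239 to 452 with 1 mouse left out.

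No estimate that changed sign had passed the test. Scaling to mitochondrial mRNA gave -0.043 for *mt-Nd2*, -0.0321 for *mt-Co2*, -0.1736 for *mt-Atp8*, -0.0379 for *mt-Co3*, -0.0177 for *mt-Nd4*, -0.0785 for *mt-Nd6* and -0.06 for *mt-Te*. Without both KO1 and flox4, an alternative chosen after seeing the data, *mt-Nd2* was at -0.0179, *mt-Atp8* at -0.0702 and *mt-Te* at -0.0059. *mt-Atp8* was at -7e-04 with genes of at least 1 count kept and at -0.0317 with the replicate block. *mt-Atp6* was at 0.0451 and *mt-Cytb* at 0.0336 with upper-quartile scaling, at 0.0117 and 0.0011 with library totals only, at 0.0702 and 0.0662 after quantile normalization and at 0.0764 and 0.1171 with the *Xist* covariate, which gave 0.0235 for *mt-Nd4l*. *mt-Atp6* was at 0.0039 with at least 10 counts in every mouse, and *mt-Cytb* at 0.0603 among mice with high *Xist*. Upper-quartile scaling and quantile normalization gave 0.0316 and 0.0327 for *Tfam* and 0.0114 and 0.0416 for *Lrpprc*, library totals only gave 0.0254 for *Tfam*, and the mice with high *Xist* gave 0.0932 for *Tfam*, 0.0199 for *Lrpprc* and 0.0273 for *Polrmt*. Without both KO1 and flox4, *Tfam* was at 0.0926 and *Polrmt* at 0.0173. The call of *Gabpb1* was also lost with library totals only (0.5518) and when scaled to mitochondrial mRNA (0.4306), as was that of *Ndufc2* (-0.4862 and -0.5926), which was also lost among mice with high *Xist* (-0.3009). *Maf* was at -4.2779 with the replicate block (edgeR adjusted *P* = 0.0516) and at -3.8695 among mice with high *Xist* (edgeR adjusted *P* = 0.108), and at -3.7926 without both KO1 and flox4 (edgeR adjusted *P* = 0.0556). Quantile normalization gave 0 for both rRNAs, which rank first and second in every mouse.

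With 1 mouse left out, estimates ran from -0.3133 to 0.4598 for *mt-Nd2*, -0.1741 to 0.3689 for *mt-Co2*, -0.315 to 0.2526 for *mt-Atp8*, -0.1867 to 0.1255 for *mt-Atp6*, -0.1299 to 0.4367 for *mt-Nd3*, -0.2277 to 0.0592 for *mt-Nd4l*, -0.1995 to 0.4336 for *mt-Nd4*, -0.101 to 0.3822 for *mt-Nd5*, -0.3409 to 0.5245 for *mt-Nd6*, -0.2514 to 0.1708 for *mt-Cytb*, -0.3047 to 0.7435 for *mt-Rnr1*, -0.2283 to 0.3252 for *mt-Te*, -0.0524 to 0.0715 for *Tfam* and -0.0585 to 0.0214 for *Lrpprc*. Adding the chromosome 1 copies or all annotated copies, both chosen after seeing the data, changed no sign. With 4 mice a genotype and BCV of 0.203 over all genes, intervals of single mitochondrial genes reached 2-fold.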

Other observations

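Copies of mitochondrial sequence on other chromosomes were counted as well. On chromosome 2, *Gm13340* averaged 372 CPM over the *c-Maf* ΔTAM and 332.5 CPM over the control mice (n = 4 each), and *Gm13341* 280.3 and 225.5 CPM. Neither was called (edgeR adjusted *P* = 0.637 and 0.705). *Gm4076* on chromosome 13 had 892 counts in KO1 and 560 in flox4, against 272 to 357 in the other 6 mice, the same 2 mice that were high for most mitochondrial genes.

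Macrophage markers summed to 99 to 103.5 CPM in the KO mice and 86 to 93 CPM in control mice, and 0 of 6 were called. Endothelial markers summed to 398.6 to 408.4 CPM in the KO mice and 411.4 to 482.2 CPM in control mice. Of these 6 markers 1 fell, beside 2.16% called over all genes. It was *Kdr*, a receptor for vascular endothelial growth factor (log2 fold change -0.37, SE 0.0851, edgeR adjusted *P* = 0.045), which is named after its values were seen. The sums of both lists did not overlap between the genotypes, and nor did 9.79% of single genes tested. Of the tubular injury markers, 0 of 4 tested were called, and KO1 had the highest sum (44.3 CPM, against 18.2 to 29.1 CPM in the other 7 mice).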
